A study of Mus musculus with 23 samples.

Results

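Snap25, Sv2a, Sv2c, Cplx1, Syn1 and Napg, whose products prepare, carry out or reset the release of transmitter from synaptic vesicles, were followed in the prefrontal cortex of mice carrying a mammary carcinoma inoculum. They were taken by gene symbol from the platform annotation, and all 6 were found among 8726 genes named there. Each was read by 1 oligo, printed at 1 spot per array. The mice were female Balb/c, aged 8 weeks. One side of each comparison had received a subcutaneous dose of 100000 4T-1 cells, from a mammary tumour line of the same strain, suspended in 100 µl of PBS (phosphate-buffered saline), and the other side PBS without cells. Tissue was taken 18, 72 or 192 h later. Tumour and PBS RNA were hybridised together on 1 array in different dyes, Cy3 and Cy5, and then again with the dyes exchanged, so that 14 arrays of total RNA made 7 replicates. They are numbered 4 to 6 for 18 h, and 3 and 4 for each later time. Nothing in the labels says whether a replicate was 1 mouse or a pool, nor how large the inoculum had grown, so the p-values cover only the scatter among these replicates, part of which may be technical.

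Synaptic vesicles fuse with the presynaptic membrane when a SNARE protein on the vesicle zips up with SNARE proteins on the membrane, and calcium sensors set the moment of fusion. Snap25 encodes the membrane SNARE that contributes 2 helices to this bundle, and Cplx1 encodes complexin 1, a small protein that binds the assembled bundle and both restrains and promotes fusion. Sv2a and Sv2c encode vesicle glycoproteins, Syn1 encodes synapsin 1, a phosphoprotein that keeps vesicles in a reserve pool, and Napg encodes gamma-SNAP, an adaptor through which the ATPase NSF takes used SNARE bundles apart. Cortical neurons express all of these families.

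Values are log2 ratios of tumour over PBS, so that 0 is no difference and 1 a doubling. Each replicate was summarised as the mean over its dye swap, formed only where both arrays gave a ratio. The direction is likely rather than settled: no header names the dye of a channel, and it was taken from the dye labels and from the sign of the authors' own log ratios. Each array gave 2555 to 8025 oligos with a value, and 2329 to 6700 had one on both arrays of a replicate. Ratios of the same replicate correlated below 0 between its arrays in 6 of 7 swaps (r across oligos -0.60 to 0.16). Both arrays of a swap compare the same RNAs, so ratios that reflect those RNAs would correlate above 0. Whether the dyes were in fact exchanged within each pair, as its labels say, was not tested; if they were not, turning the sign would cancel a tumour difference in that pair's mean, and the values below would not show its absence. Of 33428 oligo pairs, 46.6% had the same sign on both arrays. The 6 genes gave 37 such pairs, of which 17 had the same sign (45.9%). In 27 of the 37 the array with tumour RNA in Cy5 gave the lower ratio (73.0%, against 48.6% of all oligo pairs). What the dyes contribute to these gaps was not tested.

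No gene of the 6 passed an adjusted p of 0.05 in any comparison, as held for all oligos tested: percent called was 0 at 18 h (of 3437 oligos), at 72 h (of 4226), at 192 h (of 2762), for the average over time and the difference between times (of 1231 each), and for 192 h minus 18 h (of 1609) and minus 72 h (of 1932). The fit was limma's, adjusted by the Benjamini-Hochberg method over all oligos tested. An unadjusted p under 0.05 in this fit was found for 5 gene-by-time values, which were Snap25 and Sv2a toward lower values at 18 h (2 of 6 genes tested, against 3.90% of all oligos), Cplx1 and Napg toward higher values at 72 h (2 of 5, against 1.40%) and Sv2c toward a higher value at 192 h (1 of 4, against 2.97%). The genes were chosen with earlier results of these arrays known, so these counts are a description. Sv2c at 72 h, and Snap25 and Sv2a at 192 h, had 1 replicate value each and were not tested.

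**Figure D1:**
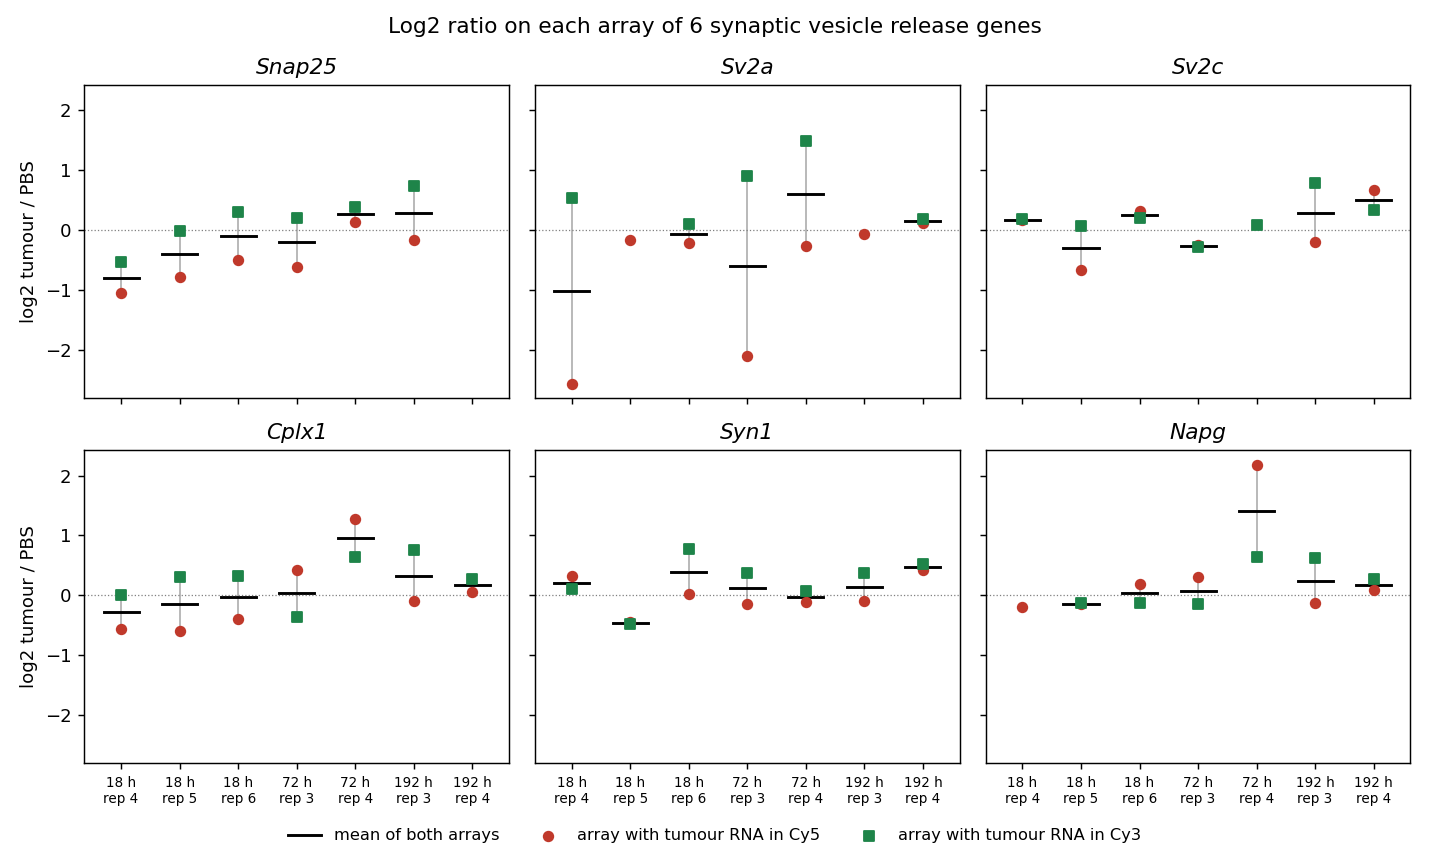
Log2 ratio of tumour over PBS (vertical axis) on each array of the 6 genes, by replicate (horizontal axis). Circles are arrays with tumour RNA in Cy5, squares arrays with tumour RNA in Cy3, grey lines join a dye swap and black bars are the mean of both arrays. The widest gap between arrays of a swap is that of Sv2a in replicate 4 at 18 h (-2.57 and 0.54), and the highest mean is that of Napg in replicate 4 at 72 h (1.41).

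Snap25, the membrane SNARE, stood below 0 in all 3 replicates at 18 h. Replicate 4 gave -0.80, replicate 5 gave -0.40 and replicate 6 gave -0.10. These values did not share a size, and 1 of 6 arrays lay above 0. On the arrays with tumour RNA in Cy5 the ratios were -1.06, -0.78 and -0.50, and on those with tumour RNA in Cy3 they were -0.54, -0.02 and 0.30. The limma estimate at 18 h was -0.43 ± 0.14 (SE, n = 3, unadjusted p = 0.00841, adjusted p = 0.745), with a 95% interval from -0.74 to -0.13. Its p ranked 24 among the 3437 oligos. Without replicate 4 the estimate was -0.25 (unadjusted p = 0.109 in limma), and without replicate 6 it was -0.60. At 72 h replicate 3 gave -0.21 and replicate 4 gave 0.26, on either side of 0, with an estimate of 0.03 ± 0.18. At 192 h replicate 3 gave 0.28, from arrays at -0.17 and 0.73.

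Replicate 4 at 192 h gave no usable Snap25 value, because every scan was saturated: at most 52.0% of the spot's pixels were unsaturated on 1 array and at most 16.0% on the other. Without the limit on saturated pixels its ratio would have been 1.66, the highest of the 7 replicates for this gene. A saturated spot bounds the signal but gives no reliable ratio. The Snap25 spot was brighter than the array's median spot on every array that gave a value (median 3.28 log2 units above it, 0.55 to 5.02 over 12 arrays). Its lower channel's signal over local background ranged from 0.74 to 23.1, lowest on the tumour-in-Cy3 array of replicate 4 at 18 h.

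Sv2a encodes the vesicle glycoprotein to which the antiepileptic drug levetiracetam binds, and it was the least repeatable of the 6 genes. At 18 h replicate 4 gave -1.02 and replicate 6 gave -0.07. Replicate 4 rested on arrays of opposite sign, -2.57 with tumour RNA in Cy5 and 0.54 with tumour RNA in Cy3. The estimate at 18 h was -0.54 ± 0.25 (SE, n = 2), with limma's unadjusted p = 0.0467 and adjusted p = 0.794. The SD of these 2 replicates was 0.67. Over 9 other ways of processing the estimate ranged from -0.76 to -0.33 (limma's adjusted p from 0.172 to 0.944). At 72 h replicate 3 gave -0.60 (arrays at -2.11 and 0.91) and replicate 4 gave 0.60 (arrays at -0.28 and 1.48). Their estimate was 0.00 ± 0.25 (SE), while the SD of these 2 replicates was 0.85. The replicates at this time thus lay farther apart than the means of 18 h and 192 h. With loess within each print block (one printed sub-grid of the slide), the array at -2.11 gave 0.35 and the 72 h estimate became 0.66 (limma's unadjusted p = 0.0182, adjusted p = 0.999). On that array the other spots of the block had a median of -0.13 with loess over the whole array. What moved the value of Sv2a was not tested. At 192 h replicate 4 gave 0.15, from arrays at 0.12 and 0.19.

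Read as Cy5 over Cy3, whichever RNA each dye carried, Sv2a lay below 0 on 11 of its 12 arrays with a value (mean -0.71, from -2.57 to 0.12). Snap25 did so on 9 of 12 (mean -0.34), Sv2c on 9 of 13 (mean -0.10), Cplx1 on 10 of 14 (mean -0.13), Syn1 on 10 of 14 (mean -0.13) and Napg on 6 of 13 (mean 0.09). Within a scanned array the 3 scans of Sv2a differed little (median range 0.13), and the gap between arrays of a swap exceeded it in each swap with both values except replicate 4 at 192 h (0.12 and 0.19). Sv2a was not marked good in both channels on any scan of the arrays with tumour RNA in Cy3 of replicate 5 at 18 h and replicate 3 at 192 h.

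Sv2c encodes a related glycoprotein known for its expression in the basal ganglia, and its spot lay near the middle of the brightness range. Brightness had a median of -0.19 log2 units relative to the array's median spot (-1.89 to 1.20 over 13 arrays). At 18 h its replicates gave 0.17, -0.30 and 0.26, spread around 0, with an estimate of 0.04 ± 0.13 (SE, n = 3). Several of these values rested on few scans: 1 of 3 was usable on the tumour-in-Cy5 array of replicate 4 and on each array of replicate 5. At 72 h replicate 3 gave -0.27, with both arrays below 0 (-0.24 and -0.29). At 192 h replicate 3 gave 0.29 and replicate 4 gave 0.50. The estimate at 192 h was 0.40 ± 0.16 (SE, n = 2, limma's unadjusted p = 0.0256, adjusted p = 1.00), with a 95% interval from 0.06 to 0.74. Both arrays of replicate 4 lay above 0 (0.67 and 0.33), whereas those of replicate 3 had opposite signs (-0.20 and 0.78).

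Cplx1, the complexin gene, and Syn1 were the 2 genes with a value in every replicate. At 18 h Cplx1 gave -0.27, -0.15 and -0.03. The 72 h values were 0.04 and 0.96, and the 192 h values 0.33 and 0.16. All replicates at 18 h were thus below 0 and all later ones above 0, though the values of -0.03 and 0.04 lay close to it. This split depended on the processing. With loess within each print block the arrays of replicate 6 at 18 h gave -0.10 and 0.13. The authors' log ratios on the arrays of replicate 3 at 72 h were -0.08 and 0.05. By time the mean was -0.15 ± 0.12 (SD, n = 3) at 18 h, 0.25 ± 0.12 (SD, n = 2) at 192 h and 0.50 ± 0.66 (SD, n = 2) at 72 h. Replicate 4 at 72 h was the highest, with both arrays above 0 (1.28 with tumour RNA in Cy5 and 0.64 in Cy3), and replicate 3 had arrays of opposite sign (0.43 and -0.36). The array at 1.28 had 2 usable scans, and its lower channel's signal over local background was 0.58. The authors' deposited log ratios, whose base is not stated, were 0.02 on that array and 0.24 on the other array of replicate 4. The estimate at 72 h was 0.50 ± 0.18 (SE, limma's unadjusted p = 0.0134, adjusted p = 0.998). Without replicate 4 at 72 h it was 0.04. From the authors' log ratios it was 0.06, and with loess within each print block 0.44.

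The F test of a difference between the 3 times gave Cplx1 an unadjusted p of 0.0352 in the limma fit (1 of 3 genes tested, against 4.14% of 1231 oligos) and an adjusted p of 0.946. From 18 to 192 h the difference was 0.40 ± 0.23 (SE, 95% interval -0.09 to 0.89, adjusted p = 0.768 in the limma fit). At 18 h the arrays with tumour RNA in Cy5 gave Cplx1 ratios of -0.56, -0.60 and -0.39, and those with tumour RNA in Cy3 gave 0.01, 0.31 and 0.33. The orientations thus had opposite signs in all 3 replicates, and each replicate mean weighs both equally. In replicate 4 at 18 h each array had 1 usable scan.

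Syn1, the synapsin gene, showed no shared direction at 18 h, where its replicates gave 0.21, -0.46 and 0.39. Replicate 5 was low on both arrays (-0.45 and -0.47), and replicate 6 ranged from 0.02 to 0.77. At 72 h the replicates gave 0.12 and -0.02, and at 192 h 0.14 and 0.48. In replicate 4 at 192 h both arrays were above 0 (0.43 and 0.53). Estimates were 0.05 ± 0.15 at 18 h, 0.05 ± 0.18 at 72 h and 0.31 ± 0.18 at 192 h (SE, limma's adjusted p = 0.985, 0.998 and 1.00). The times overlapped, and the 192 h minus 18 h difference was 0.26 ± 0.23 (95% interval -0.23 to 0.75).

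Napg, the gamma-SNAP gene, had the largest single replicate value of the 6 genes, 1.41 in replicate 4 at 72 h. The other replicate at that time gave 0.08. At 18 h Napg stood at -0.14 in replicate 5 and 0.03 in replicate 6, and at 192 h at 0.24 and 0.18. The estimate at 72 h was 0.74 ± 0.22 (SE, n = 2), with a 95% interval from 0.27 to 1.21, and its p ranked 9 of 4226 (limma's unadjusted p = 0.00423, adjusted p = 0.998). Both replicates at 72 h lay outside that interval, and their SD was 0.94. Without replicate 4 at 72 h the estimate was 0.08. The average over time was 0.30 ± 0.13 (SE, n = 6, limma's unadjusted p = 0.0325, adjusted p = 0.997). An unadjusted p under 0.05 in limma toward a higher average was found for 1 of 3 genes tested, against 1.46% of oligos. Without that replicate the average was 0.08, and with loess within each print block it was 0.06.

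The arrays behind the value of 1.41 were those at 2.18 and 0.64. On the former, with tumour RNA in Cy5, 2 of 3 scans were saturated, and the remaining scan had 92.2% of its pixels unsaturated against a limit of 90%. On the other array the scans ranged from 0.01 to 1.18, against a median range of 0.25 over the arrays of this gene. With loess fitted within each print block the arrays gave 0.18 and 0.41, and the 72 h estimate was 0.20. The other spots of the block had medians of 0.38 and 0.11 on these arrays with loess over the whole array. What moved the values of Napg was not tested. The authors' deposited log ratio for the same spot, whose base is not stated, was 0.70 on the former array and -0.10 on the latter.

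**Figure D2:**
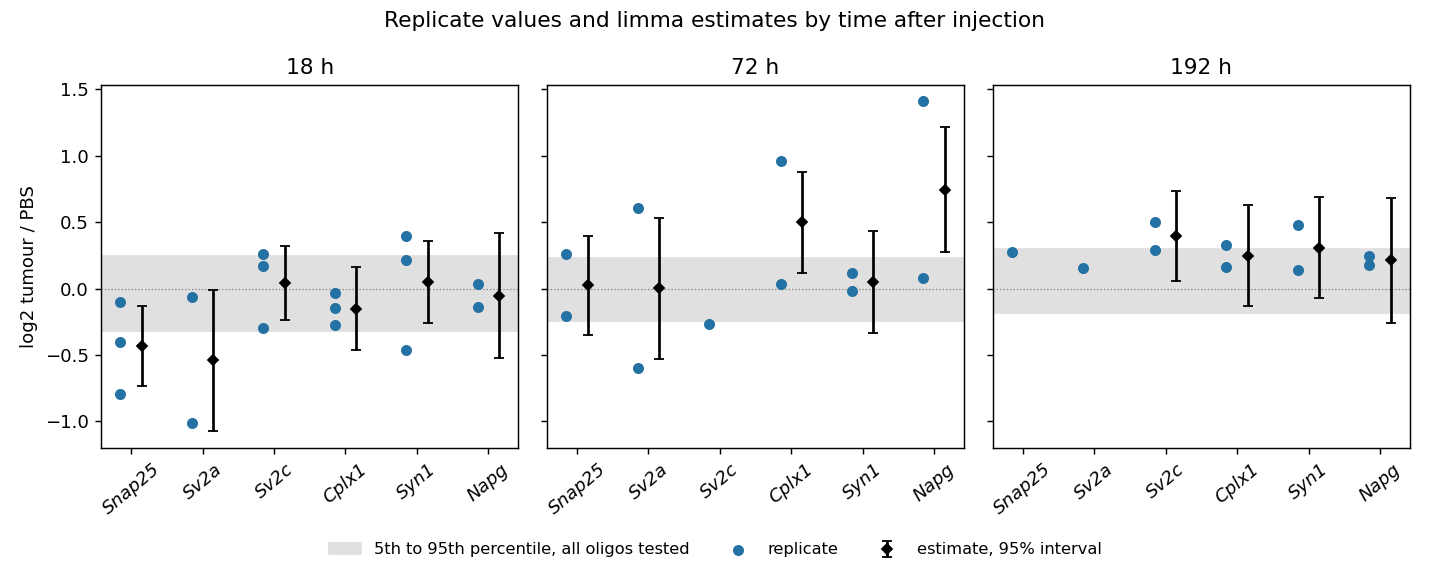
Log2 ratio of tumour over PBS (vertical axis) of the 6 genes at each time. Blue points are replicates, black diamonds the limma estimate with its 95% interval where a gene was tested, and grey bands the range from the 5th to the 95th percentile of the estimates of all oligos tested. At 72 h the estimates of Cplx1 (0.50) and Napg (0.74) lie above the band, each with its 2 replicates far apart, and at 192 h every replicate value is above 0.

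Read by replicate, more of the 6 genes lay above 0 at the later times. Of the genes with a value, 2 of 5, 0 of 5 and 3 of 6 were above 0 in the replicates at 18 h, 3 of 6 and 4 of 5 at 72 h, and 5 of 5 in each replicate at 192 h. Of all oligos, 43.8%, 55.6% and 53.4% were above 0 in the replicates at 18 h. At 72 h it was 41.1% and 52.2% of all oligos, and at 192 h 56.9% and 48.9%. Medians of the 6 genes were -0.27, -0.30 and 0.00 in the 18 h replicates, -0.09 and 0.60 in those of 72 h, and 0.28 and 0.18 in those of 192 h, while the medians of all oligos lay between -0.05 and 0.03 in every replicate. Genes on 1 array share its RNA and its dyes, so they are not replicates of each other. In 3 of the 4 genes tested for 192 h minus 18 h (Sv2c, Cplx1 and Napg), every replicate at 192 h lay above every replicate at 18 h. The same held for 19.3% of the 1609 oligos tested, and the median difference of all those oligos was 0.06. The estimates of the 4 genes were 0.35, 0.40 and 0.27 for Sv2c, Cplx1 and Napg and 0.26 for Syn1, with 95% intervals that all included 0 (limma's adjusted p from 0.768 to 0.929). From 72 to 192 h Cplx1 differed by -0.25 ± 0.25, Napg by -0.53 ± 0.31 and Syn1 by 0.26 ± 0.25 (SE, adjusted p = 0.986 for each in the limma fit).

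The values of replicate 3 at 192 h moved with the print block in which a spot lay. This replicate was hybridised to another printing of the array, on which the genes lie at other positions. On its array with tumour RNA in Cy3, Snap25 stood at 0.73, Sv2c at 0.78, Cplx1 at 0.75 and Napg at 0.62, while the other spots of their blocks had medians of 0.70, 0.58, 0.46 and 0.63. On the opposite array the same genes stood at -0.17, -0.20, -0.10 and -0.13, and the blocks at -0.25, -0.24, -0.24 and -0.30. The 4 genes were thus at most 0.292 away from the median of their block on both arrays. Syn1 lay in a block with a median of -0.25 on the former array and stood at 0.37 there. That value was the mean of 2 usable scans of opposite sign, 0.88 and -0.15. With loess within each block, Snap25 in this replicate gave 0.02 and 0.00 on the 2 arrays, Sv2c -0.01 and 0.24, Cplx1 0.02 and 0.23, Napg 0.09 and -0.09, and Syn1 -0.20 and 0.37. Replicate 4 at 192 h did not share this: its block medians for the 6 genes lay between -0.20 and 0.21. Earlier replicates held such cases too. Cplx1 stood at -0.56 on the tumour-in-Cy5 array of replicate 4 at 18 h, where its block had a median of -0.65. With loess within each block it gave -0.22 there. On the tumour-in-Cy3 array of replicate 3 at 72 h Cplx1 stood at -0.36 and its block at -0.41. The opposite arrays of these replicates gave 0.01 and 0.43, with blocks at 0.13 and -0.11.

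**Figure D3:**
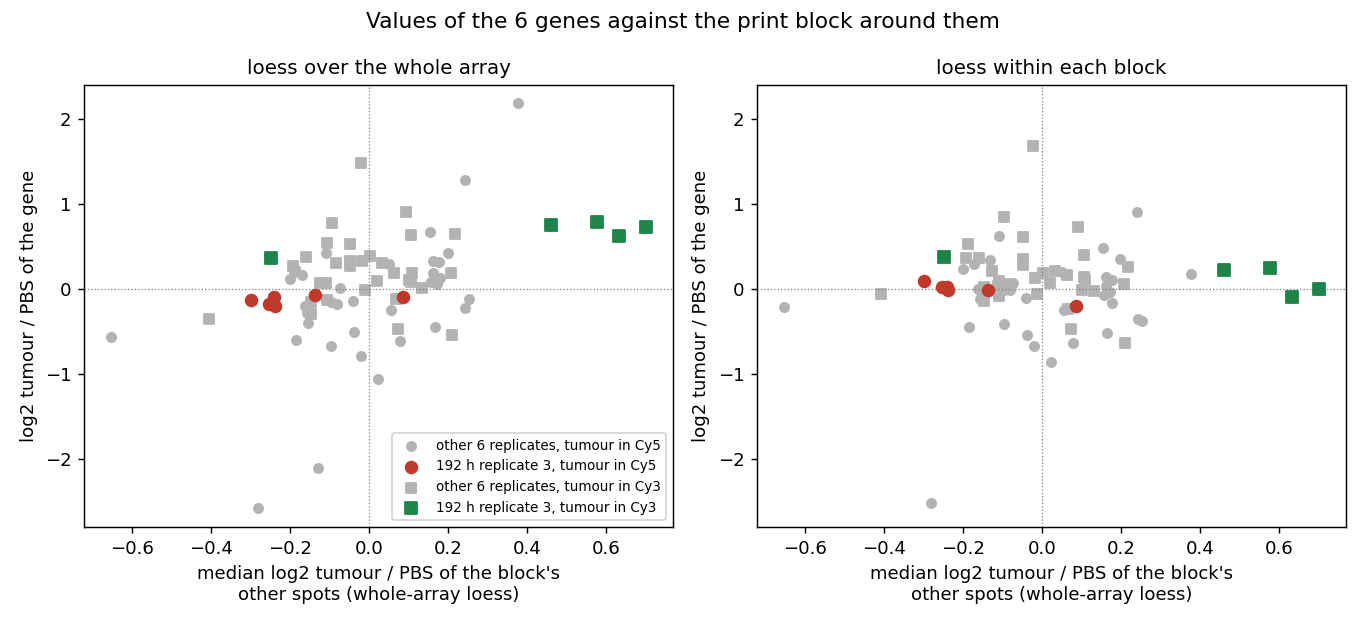
Log2 ratio of each of the 6 genes on each array (vertical axis) against the median log2 ratio of the other spots of its print block (horizontal axis), with loess over the whole array (left) and within each block (right). Coloured points are replicate 3 at 192 h and grey points the other 6 replicates. The 4 green squares at the right edge, at 0.62 to 0.78 in the left panel, lie between -0.09 and 0.24 in the right panel.

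Brightness, the mean log2 intensity of both channels, was above the array's median spot for most of the genes and varied widely between arrays of 1 time. Oligos bind with different strength, so it is not compared between genes. Relative to the array's median spot, the median over arrays was 2.64 for Sv2a, 1.70 for Syn1, 1.48 for Cplx1 and 0.98 for Napg. By time, Snap25 had medians of 3.56 (18 h, 6 arrays), 3.10 (72 h, 4 arrays) and 1.12 (192 h, 2 arrays, the saturated pair not counted). Cplx1 had 1.24, 1.87 and 1.81, and Syn1 1.42, 1.83 and 1.70, with wide overlap between the times. The lower channel's signal over its local background had a median of 5.89 for Snap25, 2.36 for Sv2a, 2.70 for Cplx1, 2.89 for Syn1, 2.08 for Napg and 0.94 for Sv2c. The intensity used here has that background already subtracted. The scans of Sv2c differed by a median of 0.30, and those of the other genes by medians of 0.12 to 0.25.

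**Figure D4:**
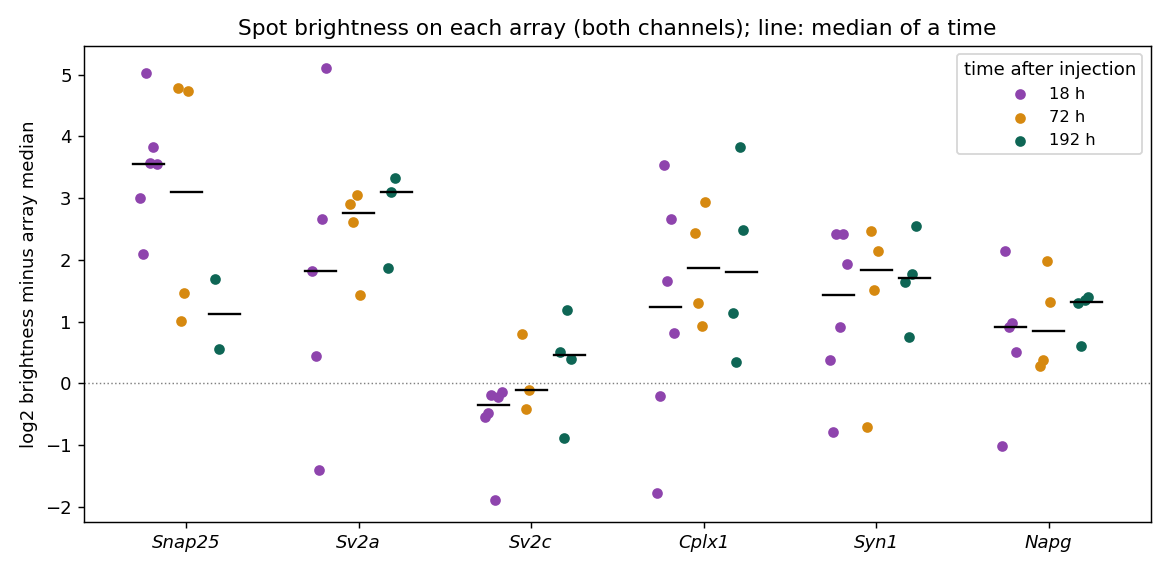
Spot brightness on each array, as log2 of both channels' mean minus the array's median spot (vertical axis), for the 6 genes, coloured by time; black lines are the median of a time. Sv2c has medians near 0 at each time (-0.35, -0.11 and 0.46), and all 6 genes, Sv2c included, span more than 2 log2 units between arrays.

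Of 117 other genes of the synaptic vesicle cycle, in 7 lists by role, 63 were on the arrays. None passed an adjusted p of 0.05 in either direction in the limma fit. This was 0 of 25 tested at 18 h, 0 of 36 at 72 h and 0 of 28 at 192 h. An unadjusted p under 0.05 in that fit was found for 1 at 18 h (lower), 1 at 72 h (higher) and 0 at 192 h. Of all oligos it was found for 212 of 3437, 110 of 4226 and 93 of 2762 in either direction. At 18 h 11 of the 25 were above 0 (44.0%, median -0.06), against 47.5% of all oligos (median -0.01). At 72 h 15 of the 36 were above 0 (41.7%, median -0.01), against 45.6% (median -0.02), and at 192 h 17 of the 28 (60.7%, median 0.03), against 55.4% (median 0.02). These lists therefore lay close to all oligos at each time.

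The highest ratios among those genes at 18 h were those of Cadps, a vesicle priming factor (0.18), Syt9, a calcium sensor of the synaptotagmin family (0.16), and Slc32a1, the vesicular GABA transporter (0.15). The lowest were those of Dnajc5, which encodes the chaperone of Snap25 known as cysteine string protein (-0.54 ± 0.22, SE, n = 2), Bin1, an endocytic amphiphysin (-0.28), and the vesicle SNARE Vamp7 (-0.25). Dnajc5 stood at -1.11 in replicate 4 and 0.04 in replicate 6, so as with Snap25 and Sv2a the lowest 18 h value was that of replicate 4. This replicate had the widest spread of all oligos (SD 0.35, against 0.16 to 0.25 in the other replicates), so low values there are not particular to these genes. At 72 h the highest were the SNARE Stx4a (0.39 ± 0.16, from 0.21 and 0.56), the vesicle marker synaptophysin, Syp (0.25), and Syt7 (0.21). The lowest were the GTPase Rab27b (-0.26), the vesicle membrane protein Scamp1 (-0.24) and the active zone scaffold Pclo (-0.21). At 192 h Scamp5 (0.27), Rab3d, a relative of the vesicle GTPase Rab3a (0.25), and Slc32a1 (0.22) were highest, and Syt13 (-0.21), Syt4 (-0.16) and Vamp7 (-0.15) lowest.

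Read by role, the partners closest to the 6 genes gave no common direction. Of SNARE fusion proteins 1 of 2 tested was above 0 at 18 h, 3 of 5 at 72 h and 2 of 3 at 192 h. Of the clamps, calcium sensors and SNARE chaperones 1 of 5, 2 of 8 and 5 of 7 were above 0 (medians -0.16, -0.05 and 0.13). Of the vesicle membrane proteins and synapsins it was 1 of 2, 3 of 8 and 4 of 6 (medians -0.08, -0.05 and 0.06). Of the SNARE disassembly genes beside Napg 1 was tested at 18 h (0.03) and 1 at 192 h (0.00). No gene of the priming, tethering and active zone list was above 0 at 72 h, where 3 were tested, and 3 of 4 were at 18 h.

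**Figure D5:**
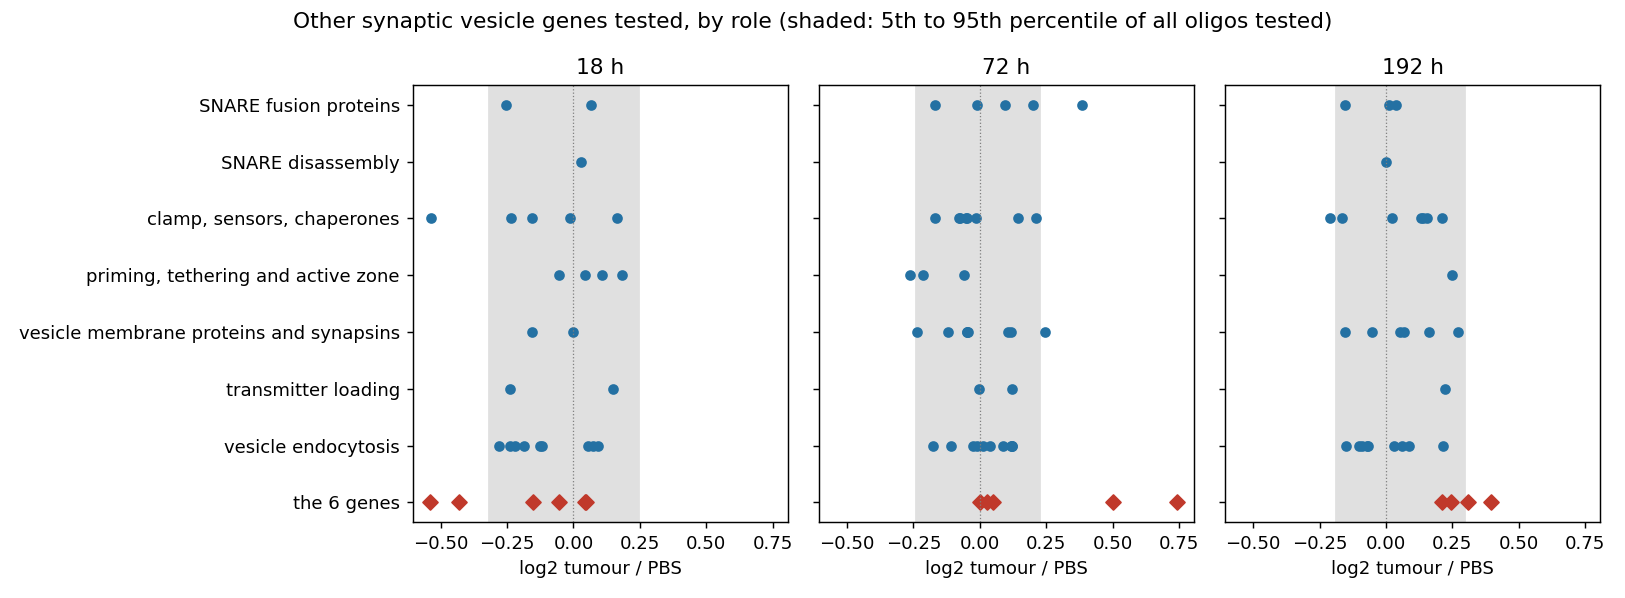
Limma estimates of the log2 ratio of tumour over PBS (horizontal axis) for the other synaptic vesicle genes tested at each time (blue), by role, and for the 6 genes (red diamonds). The shaded band runs from the 5th to the 95th percentile of all oligos tested, for example -0.32 to 0.25 at 18 h. Most blue points lie within it.

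The genes whose replicate values ran most like those of each of the 6 were found by Pearson's r over at least 6 shared replicates, as a description of these replicates without a test. Cplx1 and Napg were among each other's 3 nearest (r = 0.98 over 6 replicates, 0.96 without replicate 4 at 72 h, in which both were highest), out of 1580 and 825 oligos compared. Cplx1 also ran with Pfkfb2, an enzyme that sets the level of a regulator of glycolysis (r = 0.99), and with Atg3, an enzyme of autophagosome formation (r = 0.98). Syn1 ran nearest to Syn2, the gene of synapsin 2 (r = 0.96 over 6 replicates, 0.86 without the 2 replicates farthest from the median of Syn1), followed by Mapk6 (r = 0.95) and Avl9 (r = 0.94). Snap25 ran with Nrbp1 (r = 0.99), Cacna1i, a T-type calcium channel (r = 0.98), and Asb11 (r = 0.98). Sv2c ran with Gpr162 (r = 0.96), Ptma (r = 0.92) and Cbx6 (r = 0.92), the last falling to 0.22 without the 2 farthest replicates. Napg ran with Spag1 at r = 0.98, falling to 0.47 without them, and with Atg3 at r = 0.98. Among the 6 genes themselves, Snap25 and Cplx1 correlated at 0.82 and Sv2c and Syn1 at 0.80, whereas Cplx1 and Syn1 did at -0.03. All of these values share arrays and dyes, while the pairs named among the 6 genes lay in different print blocks.

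Neurons and other cells of the cortex were all represented on the arrays. Of the neuron markers, 10 of 12 were on the arrays, and all 10 had a value on at least 7 of the 14. So did each astrocyte (4 of 9 on the arrays), oligodendrocyte (5 of 10), microglia (8 of 12) and endothelial (4 of 10) marker found. The median log2 ratio of the neuron markers by replicate ranged from -0.31 to 0.14 (2 to 10 oligos with a value), and it was -0.14 in replicate 3 and 0.13 in replicate 4 at 192 h, where all values of the 6 genes were above 0. At 18 h it was -0.22 and -0.31 in replicates 4 and 5 (2 oligos each), where Snap25 and Cplx1 were lowest, and 0.14 in replicate 6. Low values were also found among other markers. In replicate 4 at 18 h the astrocyte markers had a median of -0.44 (3 oligos) and the endothelial marker with a value stood at -0.16, while in replicate 5 these were 0.31 and -0.10 (1 oligo each). By replicate the medians ranged from -0.44 to 0.31 for astrocyte, -0.35 to 0.20 for oligodendrocyte, -0.39 to 0.11 for microglia and -0.35 to 0.27 for endothelial markers. The 72 h estimates of 2 endothelial markers had a median of -0.45. In whole tissue, fewer neurons and less of a transcript per neuron cannot be told apart. The part of the cell makeup in these ratios was not tested.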

How the data were processed

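Each deposited scanner table holds 10080 spots in 48 blocks, and every array was scanned 3 times. Per the file headers, the intensity of each channel is background-subtracted, and a fraction gives each spot's unsaturated pixels. The authors' deposited log ratios, a score whose base and normalization are not stated, served for direction and as an alternative. The order of spots was tested against them (r across spots 0.40 to 0.86 in size in block order, near 0 in slide order). They followed channel B over A where tumour RNA was in Cy5 and the reverse where it was in Cy3. Spots marked good in both channels with at least 0.9 of pixels unsaturated entered loess (span 0.3). Scans, then swaps, were averaged, with both arrays required. The model, run in limma 3.58.1 under R 4.3.3, took the replicate values (1 coefficient per time, at least 2 replicates, Benjamini-Hochberg), after a test on simulated data. The 9 poly A arrays were not used. All 6 genes were named, and of the other synaptic vesicle genes the 3 highest and 3 lowest ratios at each time. The genes, lists and tests were chosen with earlier results of these data known. Same-numbered replicates of 72 and 192 h did not deviate together (r = 0.00092 over 1932 oligos), so numbers were not taken as pairs. Precision is limited by the number of arrays.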

Additional observations from a re-analysis of the deposited data

Results flagged for a closer look

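At each time with at least 4 arrays, the array farthest from the others was compared with Dixon's limit, in 15 sets of arrays of the 6 genes. For independent values chance would flag about 1 in 20 sets. Both arrays of a swap share their RNAs and are not independent, so that rate need not hold here. Of the 15 sets, 3 stood out. Sv2a at 18 h stood apart at -2.57 on the tumour-in-Cy5 array of replicate 4. Sv2c at 18 h stood apart at -0.67 on the tumour-in-Cy5 array of replicate 5, from 1 usable scan. Napg at 18 h stood apart at 0.19 on the tumour-in-Cy5 array of replicate 6, where its scans ran from 0.04 to 0.47.

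In 3 genes every replicate of 1 time lay on the other side of 0 from every replicate of another time, where the other time held too few replicates for a test of the difference, which was not tested. Snap25 was 0.71 higher at 192 h (1 replicate) than at 18 h (3 replicates); of 404 oligos with the same numbers of replicates, 15.1% lay on opposite sides of 0 in this way. Sv2a was 0.69 higher at 192 h (1 replicate) than at 18 h (2 replicates), and 25.3% of 1131 such oligos lay on opposite sides. Sv2c was 0.66 higher at 192 h (2 replicates) than at 72 h (1 replicate), and 23.6% of 729 such oligos lay on opposite sides. The 192 h value of Snap25 came from replicate 3, whose arrays gave 0.02 and 0.00 with loess within each block. For Sv2c the arrays of replicate 3 at 192 h then gave -0.01 and 0.24.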

How the results depend on the processing

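The limma fit called 0 oligos in each of the 7 comparisons, and most alternatives called 0 too. With median centring in place of loess it called 8 oligos at 18 h, Snap25 among them (-0.83, adjusted p = 0.0235), and 1 at 192 h. With the sign of the Cy3 array left unturned, which gives a mean of Cy5 over Cy3, it called 44 at 18 h, 7 at 72 h and 10 for the average over time. Leaving out each replicate in turn gave 0 to 1 called oligos at 72 h, 0 to 19 at 192 h, 0 to 1 for the average and for the difference between times, and 0 to 4 for 192 h minus 18 h and for 192 h minus 72 h. The highest counts came without replicate 3 at 192 h, except at 72 h, where the 1 call came without replicate 4 of that time; in both cases a lone replicate is assumed to vary like the others. With the replicate block, 192 h minus 72 h had 0 calls (70 unadjusted); that block was the only pairing possible, as 18 h shares 1 number with the other times.

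Of 175 values of the 6 genes under alternatives that left every replicate in and the sign turned, 164 had the sign and the side of the threshold of the main value, 10 had the other sign and 1 passed. Values of the other sign were Syn1 at 18 h (-0.18 with median centring, -0.010 with the first scan only, -0.026 with dim spots left out and -0.024 from the authors' log ratios), Syn1 at 72 h (-0.0052 with normexp and -0.044 with median centring), Snap25 at 72 h (-0.018 with loess within blocks, -0.077 with the first scan and -0.085 from the authors' log ratios) and Sv2a at 72 h (-0.024 with the first scan). These 4 values lay between 0.00 and 0.05 in the main fit. Over the 9 alternatives with all replicates, the sign turned and the arrays' own intensities, Sv2a at 72 h ranged from -0.024 to 0.66, the highest with loess within blocks (unadjusted p = 0.0182). Leaving out a replicate gave -0.60 to -0.25 for Snap25, -0.063 to 0.22 for Sv2c and -0.12 to 0.30 for Syn1 at 18 h, and -0.21 to 0.26 for Snap25, -0.60 to 0.60 for Sv2a and -0.020 to 0.12 for Syn1 at 72 h.

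With the Cy3 sign unturned, 12 values of the 6 genes took the other sign and 6 kept theirs. At 18 h the other sign was found for Sv2c (-0.11), Syn1 (-0.087) and Napg (0.073). At 72 h it was found for Snap25 (-0.27), Sv2a (-1.19) and Syn1 (-0.18). At 192 h it was found for Sv2c (-0.16), Cplx1 (-0.26), Syn1 (-0.14) and Napg (-0.24). For the average it was found for Cplx1 (-0.092) and Syn1 (-0.13). Values that kept their sign were those of Snap25 (-0.35), Sv2a (-0.86) and Cplx1 (-0.37) at 18 h. The others were Cplx1 (0.36) and Napg (0.50) at 72 h and Napg (0.11) on average. Napg at 72 h ranged from 0.20 to 0.95, and Snap25 at 18 h from -0.83 to -0.39, over the same 9 alternatives; with loess within blocks Napg was 0.20 at 72 h, 0.056 at 192 h and 0.062 on average, and Cplx1 was 0.14 at 192 h. The cause of these differences was not tested. Spots near the background and saturated spots limit the precision.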
